A study of Mus musculus with 6 samples.

Results

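The endothelial cell and angiogenesis genes described here were *Pecam1*, *Cdh5*, *Kdr*, *Flt1*, *Tek*, *Tie1*, *Vwf*, *Eng*, *Angpt1* and *Angpt2*. They were found by their symbols in a table of expression values, where each of the 10 matched 1 of 21358 entries. The comparison was between whole B16-F10 tumors of mice given adoptive cell transfer (ACT) with IL-2 and of mice given ACT with NKTR-214, and it addressed how far the vessel genes of the tumor differed between these treatments and among tumors treated alike. B16-F10 is a murine melanoma line that carries the antigen gp100. It was grown under the skin of C57BL/6 mice. All mice of both groups received 500 cGy of total body irradiation and then 2000000 activated splenocytes of pmel-1 mice, whose transgenic T cell receptor recognizes gp100, once tumors had reached 150 mm3 or more. The ACT + IL-2 group received recombinant human IL-2 at 0.4 mg/kg on 3 days in a row per cycle. The ACT + NKTR-214 group received NKTR-214, IL-2 with releasable polyethylene glycol chains, at 0.8 mg/kg once per cycle of 9 days. Tumors were taken at day 12, 3 per group from separate mice, and each gave 1 RNA-seq library. Tumor-bearing mice were females aged 6 to 8 weeks and pmel-1 donors females aged 5 to 7 weeks, per the study's methods. With no untreated tumor in the comparison, the values describe one treatment against the other.

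Blood vessels are lined by endothelial cells, which hold together through VE-cadherin (*Cdh5*) and PECAM-1 (*Pecam1*). New vessels sprout when VEGF-A binds VEGFR2 (*Kdr*), while VEGFR1 (*Flt1*) binds the same ligand more tightly and signals less. Maturation and leakiness are set by the angiopoietins (*Angpt1*, *Angpt2*), which act on the receptor TIE2 (*Tek*) together with the related TIE1 (*Tie1*). Endoglin (*Eng*) is a coreceptor for BMP9 and TGF-beta ligands, and von Willebrand factor (*Vwf*) is the large adhesive glycoprotein stored in endothelial granules. PECAM-1 is also carried by platelets and many leukocytes, and VEGFR1 by monocytes and macrophages. A melanoma line has no vessels of its own, so vascular transcripts in these libraries come from mouse host tissue, except where the tumor cells themselves transcribe a gene.

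The genes lie on 7 chromosomes of the GRCm38 assembly (GENCODE vM21 positions, the build to which the authors mapped their reads). *Flt1* (chr5:147561604-147726011, minus strand) and *Kdr* (chr5:75932827-75978458, minus strand) share chromosome 5, and *Tek* (chr4:94739289-94874976, plus strand) and *Tie1* (chr4:118471191-118490061, minus strand) share chromosome 4. *Cdh5* (chr8:104101625-104144511, plus strand) and *Angpt2* (chr8:18690263-18741562, minus strand) are both on chromosome 8. The others are *Pecam1* (chr11:106654217-106750628, minus strand), *Angpt1* (chr15:42424723-42676977, minus strand), *Eng* (chr2:32646595-32682669, plus strand) and *Vwf* (chr6:125546774-125686679, plus strand). For *Angpt1*, 14.2% of the exon bases are shared with *Gm17473* on the opposite strand, and for *Eng* 1.51% are shared with *Fpgs*. Whether reads were counted by strand is not given in the sources used here, so *Angpt1* values may include antisense reads.

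Promoters of 5 of the 10 genes were at hand (RefSeq, GRCm38.p6, 250 bases before to 50 bases after the start of the gene). ETS factors, which bind a GGAA core, act widely in endothelial promoters, and 3 promoters are printed because *Flt1* and *Kdr*, the VEGF receptors, are compared by their ratio below and *Tie1* followed *Cdh5* most closely. Capitals mark matches on either strand to AGGAAG and likewise to the second ETS motif, CCGGAA. The windows are chr5:147725962-147726261 for *Flt1*, chr5:75978406-75978705 for *Kdr* and chr4:118489800-118490099 for *Tie1*, each read 5′ to 3′ on the minus strand.
Flt1: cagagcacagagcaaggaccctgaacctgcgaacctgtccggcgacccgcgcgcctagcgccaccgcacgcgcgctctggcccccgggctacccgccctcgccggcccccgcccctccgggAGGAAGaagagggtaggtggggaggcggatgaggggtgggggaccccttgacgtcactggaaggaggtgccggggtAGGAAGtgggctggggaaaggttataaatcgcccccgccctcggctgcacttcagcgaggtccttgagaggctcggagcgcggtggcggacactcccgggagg
Kdr: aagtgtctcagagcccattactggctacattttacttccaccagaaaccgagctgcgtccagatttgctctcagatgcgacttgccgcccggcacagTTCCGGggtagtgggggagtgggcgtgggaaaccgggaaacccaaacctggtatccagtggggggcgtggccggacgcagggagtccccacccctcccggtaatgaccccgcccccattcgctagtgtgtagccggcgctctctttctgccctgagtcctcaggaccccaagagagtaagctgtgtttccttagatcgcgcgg
Tie1: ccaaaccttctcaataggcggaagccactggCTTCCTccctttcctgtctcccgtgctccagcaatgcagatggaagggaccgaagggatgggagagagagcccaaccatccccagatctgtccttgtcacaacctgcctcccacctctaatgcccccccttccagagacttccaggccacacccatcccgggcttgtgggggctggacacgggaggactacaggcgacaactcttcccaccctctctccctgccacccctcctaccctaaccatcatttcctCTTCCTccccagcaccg
The *Flt1* promoter held 2 matches to AGGAAG and the *Tie1* promoter also held 2, whereas the *Kdr* promoter held 1 match to CCGGAA. Matches on the opposite strand, which are that of *Kdr* and both of *Tie1*, are printed as the reverse complement of the motif. *Eng* held 2 matches to AGGAAG. *Tek* held none of either motif and 1 match to AGATAA, which GATA factors bind. Of all 32851 promoters of this length, 35.4% held AGGAAG, 14.9% of them held the CCGGAA motif, 45.2% held at least 1 of both ETS motifs and 11.2% held AGATAA, so 4 of 5 with an ETS motif stands beside a common match.

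Expression was given as FPKM, fragments per kilobase of gene model at a common library depth, a unit that corrects for gene length and so allows levels of different genes to be compared. Steps between low values of single genes recovered whole reads and placed the libraries between about 20900000 and 24600000 reads, a narrow range. Reads behind the values ran from 269 to 2873 per tumor for *Pecam1*, *Cdh5*, *Kdr*, *Flt1*, *Angpt2* and *Vwf* and from 183 to 697 for *Tie1*. Only *Tek* (23 to 148 reads) and *Angpt1* (39 to 80 reads) were read thinly, and for *Eng* the steps were not resolved. Reads were not tagged by molecule, so counting intervals cover counting error only. FPKM sums over all entries ran from 176420 in ACT + IL-2 replicate 2 to 246514 in ACT + NKTR-214 replicate 2.

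In ACT + NKTR-214 tumors *Pecam1* and *Flt1* were higher than in ACT + IL-2 tumors, by 2.21-fold and 1.91-fold in mean FPKM, and the other 8 genes did not pass the test. The junction gene *Cdh5*, the VEGF receptor *Kdr* and *Vwf* differed by less than the spread between tumors. Groups were compared with limma on log2(FPKM + 1) over the 14172 genes whose FPKM averaged 0.1 or more, and a gene was called at a Benjamini-Hochberg adjusted p under 0.05. On that scale 2 of 10 genes were called higher, beside 20.7% of all genes tested, and 0 of 10 lower, beside 8.28% of all genes tested. At an unadjusted p under 0.05 the counts were 3 higher, beside 26.2% of all genes tested, and 0 lower, beside 13.2%. The median log2 fold change of the 10 genes was 0.20, and that of all genes tested was 0.045. Other scalings of the libraries called 2 or 3 of the 10 genes lower, as given with *Eng*, *Angpt2* and *Angpt1* below. In bulk tumor RNA, fewer endothelial cells and less RNA per cell cannot be told apart.

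**Figure D1:**
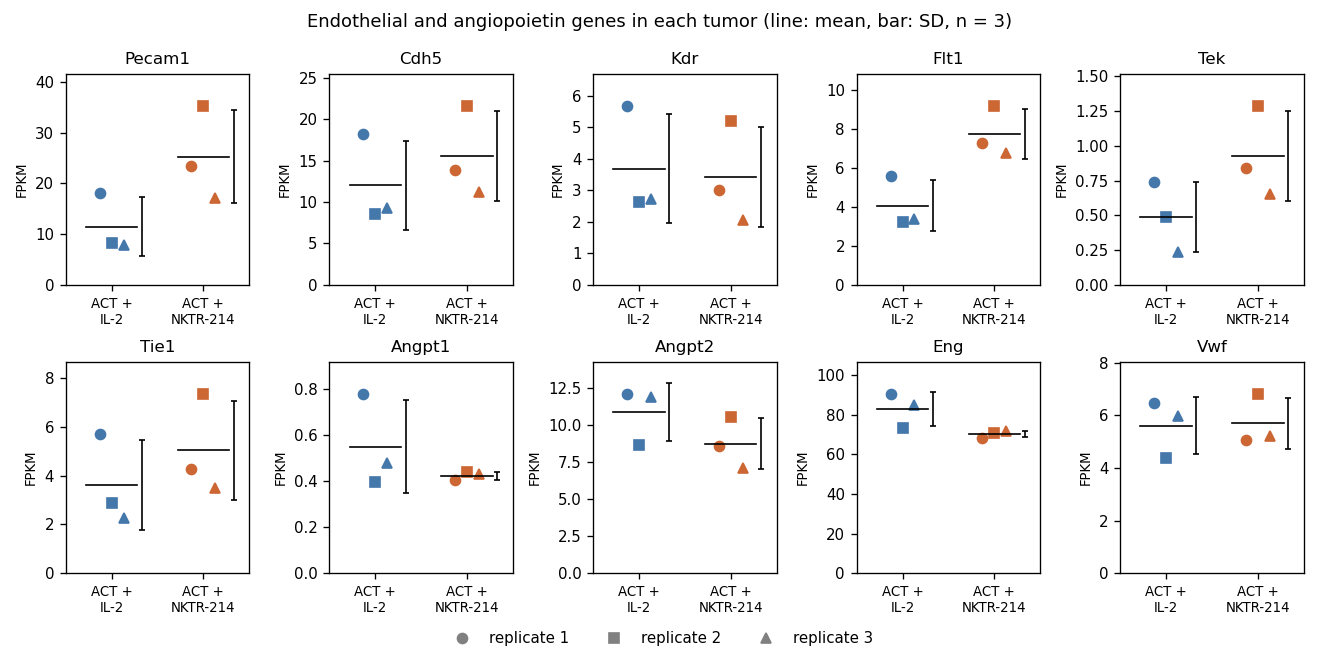
FPKM (y axis, linear, from 0) of each of the 10 genes in the 3 ACT + IL-2 and 3 ACT + NKTR-214 tumors, 1 panel per gene, with markers for replicates 1 to 3, a line at the mean and a bar of 1 SD. *Flt1* is the gene whose 3 ACT + NKTR-214 tumors (6.79 to 9.21) all lie above the ACT + IL-2 tumors (3.25 to 5.58), and *Eng* the gene whose ACT + NKTR-214 tumors (68.4 to 71.7) all lie below (73.5 to 90.4).

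*Pecam1* had 18.2, 8.31 and 7.88 FPKM in ACT + IL-2 tumors 1, 2 and 3. In the ACT + NKTR-214 tumors, given in the same order here and below, it had 23.4, 35.3 and 17.1 FPKM. ACT + IL-2 tumors 2 and 3 were the lowest of the 6, but the groups overlapped, because ACT + IL-2 tumor 1 exceeded ACT + NKTR-214 tumor 3. The mean rose from 11.5 ± 5.83 to 25.3 ± 9.23 FPKM (SD, n = 3 each), which is 1.11 on the log2 scale (SE 0.27, 95% interval 0.54 to 1.69, limma adjusted p = 0.00554). Without ACT + IL-2 tumor 2 the gene was no longer called, at a log2 fold change of 0.95 (limma adjusted p = 0.111), and over all 6 such fits the change ran from 0.85 to 1.47.

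*Cdh5*, the junction protein that defines the endothelial lineage, had 18.2, 8.51 and 9.25 FPKM in the ACT + IL-2 tumors and 13.8, 21.6 and 11.2 FPKM in the ACT + NKTR-214 tumors. Here 1 tumor of each group stood high, and ACT + IL-2 tumor 1 lay above 2 of the 3 ACT + NKTR-214 tumors. Means of 12.0 ± 5.40 and 15.5 ± 5.41 FPKM (SD, n = 3 each) gave a log2 fold change of 0.37 (SE 0.25, 95% interval -0.16 to 0.91, limma adjusted p = 0.293).

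Of the VEGF receptors, *Flt1* was called and *Kdr* was not, and their ratio is compared further below. *Flt1* had 5.58, 3.25 and 3.40 FPKM in ACT + IL-2 tumors and 7.31, 9.21 and 6.79 FPKM in ACT + NKTR-214 tumors, with no overlap between groups. The mean rose from 4.07 ± 1.30 to 7.77 ± 1.27 FPKM (SD, n = 3 each), which is 0.81 on the log2 scale (SE 0.19, 95% interval 0.41 to 1.20, limma adjusted p = 0.00379). *Flt1* was 1 of 10 genes with all ACT + NKTR-214 tumors above all ACT + IL-2 tumors, beside 27.1% of all genes tested, so this separation was common in the libraries. *Flt1* was called in 6 of 6 fits that left out 1 tumor, with log2 fold changes of 0.69 to 1.01. The weakest call was without ACT + IL-2 tumor 2 (0.70, limma adjusted p = 0.0478).

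*Kdr* had 5.68, 2.64 and 2.73 FPKM in ACT + IL-2 tumors and 3.01, 5.18 and 2.07 FPKM in ACT + NKTR-214 tumors. The groups covered almost the same range, and the highest and the lowest of the 6 tumors belonged to different groups. Means of 3.68 ± 1.73 and 3.42 ± 1.59 FPKM (SD, n = 3 each) gave a log2 fold change of -0.083 (SE 0.25, 95% interval -0.62 to 0.45, limma adjusted p = 0.842), an interval that leaves room for changes of either sign.

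The TIE receptors lay higher on average in ACT + NKTR-214 tumors without passing the test. *Tek*, which encodes the angiopoietin receptor, had 0.7385, 0.491 and 0.233 FPKM in ACT + IL-2 tumors and 0.843, 1.29 and 0.6525 FPKM in ACT + NKTR-214 tumors. ACT + IL-2 tumor 1 exceeded ACT + NKTR-214 tumor 3, so the groups overlapped. The mean was 0.488 ± 0.253 against 0.928 ± 0.327 FPKM (SD, n = 3 each), and the log2 fold change of 0.37 (SE 0.14, 95% interval 0.07 to 0.67) missed the threshold with a limma adjusted p of 0.0578. With FPKM + 1 the change of so low a gene is understated, since the ratio of means was 1.90. *Tek* was not called under the 3 other scalings either. Its log2 fold change was 0.33 at a common 75th percentile, 0.14 after quantile normalization (limma adjusted p = 0.403) and 0.59 at a common sum. The lowest FPKM, in ACT + IL-2 tumor 3, rested on 23 reads, with a 95% Poisson counting interval of 0.148 to 0.350 FPKM.

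*Tie1*, which encodes the partner receptor with no firmly bound ligand, had 5.71, 2.90 and 2.25 FPKM in ACT + IL-2 tumors and 4.28, 7.35 and 3.52 FPKM in ACT + NKTR-214 tumors. The order of tumors within each group was close to that of *Cdh5*, with ACT + IL-2 tumor 1 above 2 of 3 ACT + NKTR-214 tumors. Means of 3.62 ± 1.84 and 5.05 ± 2.03 FPKM (SD, n = 3 each) gave a log2 fold change of 0.41 (SE 0.25, 95% interval -0.13 to 0.95, limma adjusted p = 0.252).

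Of the ligands, *Angpt1*, the TIE2 agonist made mainly by cells around the vessel, had 0.778, 0.395 and 0.477 FPKM in ACT + IL-2 tumors and 0.404, 0.438 and 0.430 FPKM in ACT + NKTR-214 tumors. ACT + NKTR-214 tumors lay close together, with a coefficient of variation (SD over mean) of 4.15%, which is below the 14.7% to 15.2% that counting error alone gives at 43 to 46 reads per tumor. Means of 0.550 ± 0.201 and 0.424 ± 0.0176 FPKM (SD, n = 3 each) gave a log2 fold change of -0.11 (SE 0.11, 95% interval -0.34 to 0.11, limma adjusted p = 0.46). With 1 tumor left out the difference ran from -0.19, without ACT + IL-2 tumor 2, to -0.012, without ACT + IL-2 tumor 1, and was not called in these 6 fits. After quantile normalization it was called lower, by -0.31 (limma adjusted p = 0.0109).

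*Angpt2*, the ligand that endothelial cells release and that can oppose *Angpt1*, had 12.1, 8.63 and 11.9 FPKM in ACT + IL-2 tumors and 8.56, 10.5 and 7.10 FPKM in ACT + NKTR-214 tumors. It exceeded *Angpt1* in every tumor, and ACT + IL-2 tumor 2 was the low tumor of its group. Means of 10.9 ± 1.93 and 8.73 ± 1.71 FPKM (SD, n = 3 each) gave a log2 fold change of -0.29 (SE 0.17, 95% interval -0.65 to 0.08, limma adjusted p = 0.237). With 1 tumor left out it ran from -0.43, without ACT + IL-2 tumor 2, to -0.16, without ACT + NKTR-214 tumor 3, and was not called in these 6 fits. *Angpt2* was called lower after scaling to a common 75th percentile (-0.39, limma adjusted p = 0.0231), after quantile normalization (-0.39, adjusted p = 0.0210) and after rescaling to a common FPKM sum (-0.49, adjusted p = 0.00922).

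*Eng* had by far the highest level per length of the 10 genes, 90.4, 73.5 and 85.0 FPKM in ACT + IL-2 tumors and 68.4, 70.9 and 71.7 FPKM in ACT + NKTR-214 tumors. All ACT + NKTR-214 tumors lay below all ACT + IL-2 tumors, which was so for 1 of 10 genes and for 15.3% of all genes tested. The mean was 83.0 ± 8.65 against 70.3 ± 1.70 FPKM (SD, n = 3 each), but the log2 fold change of -0.23 (SE 0.15, 95% interval -0.56 to 0.10) was not called (limma adjusted p = 0.294). *Eng* was called lower under each of the 3 other scalings, by -0.34 at a common 75th percentile (limma adjusted p = 0.00993), -0.36 after quantile normalization (adjusted p = 0.00666) and -0.41 at a common sum (adjusted p = 0.00497). In those fits 2, 3 and 2 of the 10 genes were called lower, beside 26.2%, 32.1% and 31.2% of all genes tested, and the median of all genes moved by -0.075, -0.15 and -0.15 on the log2 scale. The split of calls over all genes thus went from 2940 higher and 1173 lower to 2669 higher and 4549 lower after quantile normalization. *Pecam1* and *Flt1* were called higher under all 3 scalings, with log2 fold changes of 0.99 to 1.02 and 0.66 to 0.75.

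*Vwf* had 6.45, 4.39 and 5.96 FPKM in ACT + IL-2 tumors and 5.07, 6.80 and 5.22 FPKM in ACT + NKTR-214 tumors. It varied less among tumors of a group than *Cdh5* did, and the group means were nearly equal. Means of 5.60 ± 1.08 and 5.70 ± 0.961 FPKM (SD, n = 3 each) gave a log2 fold change of 0.025 (SE 0.17, 95% interval -0.34 to 0.39, limma adjusted p = 0.935), whose sign turned under the 3 other scalings.

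**Figure D2:**
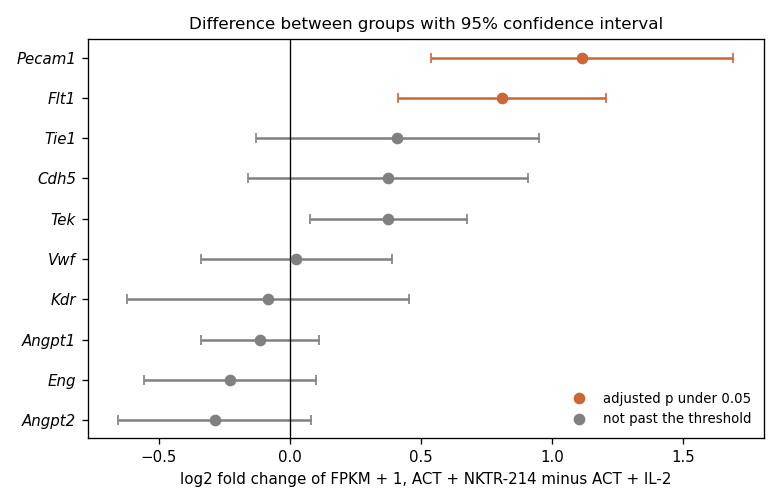
Log2 fold change of FPKM + 1, ACT + NKTR-214 minus ACT + IL-2 (x axis), for the 10 genes (y axis), with the limma 95% confidence interval as a bar. The intervals of *Pecam1* (0.54 to 1.69), *Flt1* (0.41 to 1.20) and *Tek* (0.07 to 0.67) lie above 0, and *Tek* is not called after adjustment.

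Ordered by mean FPKM in ACT + IL-2 tumors, *Eng* came first, followed by *Cdh5*, *Pecam1*, *Angpt2*, *Vwf*, *Flt1*, *Kdr*, *Tie1*, *Angpt1* and *Tek*. The values of *Cdh5*, *Pecam1* and *Angpt2* overlapped, as did those of *Vwf*, *Flt1*, *Kdr* and *Tie1* with their neighbours, and those of *Angpt1* and *Tek*. Gaps with no overlap lay below *Eng*, below *Angpt2* and below *Tie1*. In ACT + NKTR-214 tumors the order was *Eng*, *Pecam1*, *Cdh5*, *Angpt2*, *Flt1*, *Vwf*, *Tie1*, *Kdr*, *Tek* and *Angpt1*. There the gaps lay below *Eng*, below *Cdh5*, below *Kdr* and below *Tek*.

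Tumors of one group differed from each other in most of these genes at once. ACT + IL-2 tumor 1 was the highest of its group for 10 of 10 genes, and ACT + NKTR-214 tumor 2 was the highest of its group for 9 of 10, the exception being *Eng*. Both held for 9 of 10 genes and for 29.0% of all genes tested. ACT + NKTR-214 tumor 3 was the lowest of its group for *Pecam1*, *Cdh5*, *Kdr*, *Flt1*, *Tek*, *Tie1* and *Angpt2*, and tumor 1 for the other 3 genes. ACT + IL-2 tumor 1 also had the highest FPKM sum of its group and ACT + NKTR-214 tumor 2 the highest of all 6. The same order was common in other cell types: both tumors were the highest of their groups for 7 of 7 T cell genes, 6 of 6 fibroblast genes, 6 of 7 macrophage genes and 7 of 8 angiogenesis inhibitors, while ACT + NKTR-214 tumor 2 was the lowest of its group for 7 of 7 melanocyte genes. The part of these sums and cell types in the pattern was not tested.

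The coefficient of variation among ACT + IL-2 tumors ran from 10.4% (*Eng*) to 51.8% (*Tek*), and that among ACT + NKTR-214 tumors from 2.41% (*Eng*) to 46.6% (*Kdr*). Its median over the 10 genes was 40.8% and 27.2%, against 14.6% and 10.3% over all 11558 genes that averaged 1 FPKM or more. It was larger in ACT + IL-2 tumors for 9 of 10 genes as deposited and for 6 of 10 after rescaling to a common sum, where the medians were 30.2% and 21.9%. As deposited, the median over all genes was also larger in ACT + IL-2 tumors, and the share of all genes was not counted. Of the 10 genes, *Tek* and *Angpt1* averaged below 1 FPKM, unlike the genes of that median. *Pecam1*, *Cdh5*, *Kdr*, *Tek* and *Tie1* varied widely in both groups, whereas *Eng*, *Angpt2* and *Vwf* varied less.

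**Figure D3:**
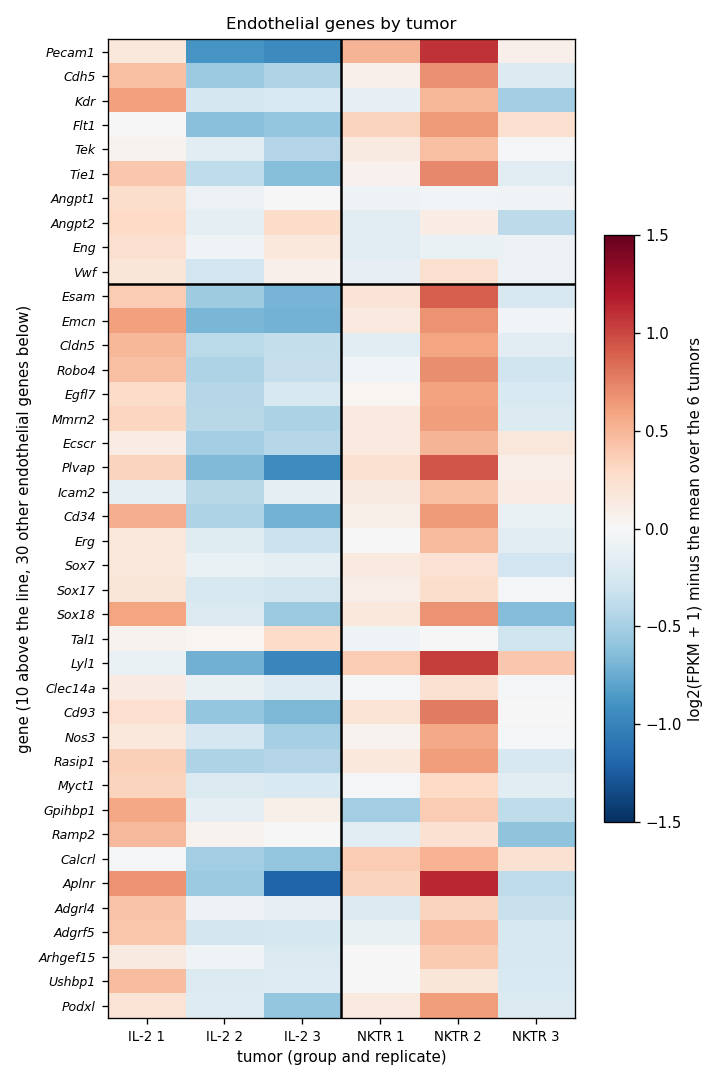
Heat map of log2(FPKM + 1) minus the mean over the 6 tumors (color scale) for the 10 genes above the line and 30 other endothelial identity genes below it (rows), in each tumor (columns). Replicate 1 of ACT + IL-2 and replicate 2 of ACT + NKTR-214 are both the highest tumors of their groups for 9 of the 10 and 28 of the 30 genes.

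Single tumors moved the calls. Without ACT + IL-2 tumor 1, 5 of 10 genes were called higher, beside 24.5% of all genes tested, with *Cdh5* at 0.69 (limma adjusted p = 0.00106), *Tek* at 0.49 (adjusted p = 0.000913) and *Tie1* at 0.71 (adjusted p = 0.00139) added to *Pecam1* and *Flt1*. Without ACT + NKTR-214 tumor 3 the same 5 genes were called, beside 23.5% of all genes tested, with *Cdh5* at 0.57 (limma adjusted p = 0.0124), *Tek* at 0.48 (adjusted p = 0.00103) and *Tie1* at 0.59 (adjusted p = 0.0115). Without ACT + NKTR-214 tumor 2 the values moved the other way, to 0.13 for *Cdh5*, 0.24 for *Tek* and 0.15 for *Tie1*, as they did without ACT + IL-2 tumor 3, to 0.24, 0.25 and 0.19, and for *Cdh5* without ACT + IL-2 tumor 2, to 0.19. None of these was called. The sign for *Kdr* turned without ACT + IL-2 tumor 1 or ACT + NKTR-214 tumor 3, to 0.20 and 0.15, and neither value was called. Without ACT + NKTR-214 tumor 1, *Tek* was called at 0.40 (limma adjusted p = 0.0452), in a fit that called 18.3% of all genes tested higher. Without ACT + IL-2 tumor 2, *Eng* was called lower at -0.31 (limma adjusted p = 0.0443), in a fit that called 14% of all genes tested lower. With the tumor highest in endothelial genes left out of each group, a setting chosen after seeing the data, *Pecam1* (1.21), *Flt1* (0.90) and *Tek* (0.36, limma adjusted p = 0.0308) were called higher, beside 18.9% of all genes tested.

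Ratios of 2 genes within a tumor do not change when a library is multiplied by 1 factor, as at a common 75th percentile or a common sum, though quantile normalization does change them. The FPKM as deposited gave 8 ratios. The ratio of *Flt1* to *Kdr* was 0.982, 1.23 and 1.24 in ACT + IL-2 tumors and 2.43, 1.78 and 3.27 in ACT + NKTR-214 tumors. *Flt1* was thus near the level of *Kdr* in each ACT + IL-2 tumor and above it in each ACT + NKTR-214 tumor, a 2.11-fold difference between the groups. The two-sided exact permutation p was 0.1, the smallest that 3 against 3 tumors allow, and 0.16 after Benjamini-Hochberg adjustment over the 8 ratios, so no ratio could pass 0.05.

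Among the ratios to *Cdh5*, that of *Kdr* was steady in ACT + IL-2 tumors (0.312, 0.310 and 0.295) and lower in ACT + NKTR-214 tumors (0.217, 0.240 and 0.185). The ratio of *Pecam1* to *Cdh5* was 0.998, 0.976 and 0.852 against 1.69, 1.63 and 1.53. These differences were 0.698-fold and 1.72-fold with no overlap between groups, each with an exact permutation p of 0.1 (adjusted p = 0.16). *Vwf* and *Eng* relative to *Cdh5* overlapped between groups, with exact permutation p-values of 0.3 and 0.2 and log2 differences of -0.61 to -0.18 and -0.92 to -0.38 with 1 tumor left out.

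Within the angiopoietin system, *Angpt2* relative to *Tek* was 16.3, 17.6 and 50.9 in ACT + IL-2 tumors and 10.2, 8.16 and 10.9 in ACT + NKTR-214 tumors. The difference was 0.395-fold with no overlap (exact permutation p = 0.1, adjusted p = 0.16), and the value of 50.9 rests on the 23 *Tek* reads of ACT + IL-2 tumor 3. Without that tumor the log2 difference was -0.81 in place of -1.34. *Tie1* relative to *Tek* was 7.73, 5.89 and 9.64 against 5.08, 5.70 and 5.39, also with no overlap (log2 difference -0.50, exact permutation p = 0.1). With 0.1 added to the FPKM it was -0.35 with an exact permutation p of 0.2, and without ACT + IL-2 tumor 3 it was -0.33. *Angpt2* relative to *Angpt1* was 15.5, 21.8 and 24.9 against 21.2, 24.0 and 16.5, a log2 difference of -0.0016 (exact permutation p = 1).

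**Figure D4:**
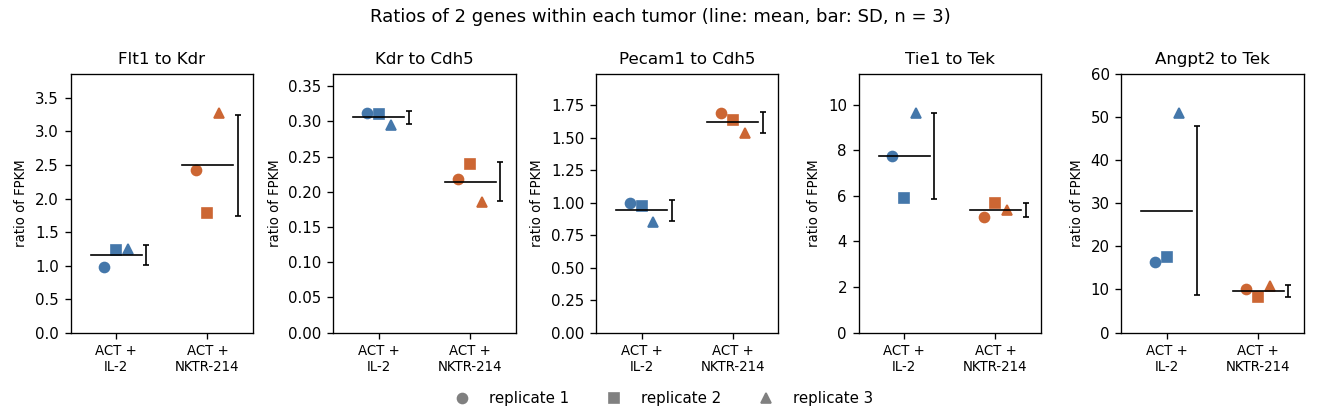
Ratio of FPKM of 2 genes within each tumor (y axis, linear) for the 5 ratios, of 8 compared, whose groups do not overlap, 1 panel each, with markers for replicates 1 to 3, a line at the mean and a bar of 1 SD for ACT + IL-2 and ACT + NKTR-214. ACT + NKTR-214 tumors lie higher for *Flt1* to *Kdr* (0.982 to 1.24 against 1.78 to 3.27) and *Pecam1* to *Cdh5* (0.852 to 0.998 against 1.53 to 1.69), and lower for the other 3.

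Genes whose log2(FPKM + 1) followed *Cdh5* most closely over the 6 tumors were ranked by Pearson r among 11557 genes, as a description over points that share libraries, depth and groups. The first 8 were *Efna1* (r = 0.998), *Fgd5* (0.994), *Afap1l1* (0.993), *Rasip1* (0.993), *Tmem88* (0.992), *Mmrn2* (0.988), *Pdgfb* (0.987) and *Cd300lg* (0.986). For *Efna1*, an ephrin ligand, FPKM ran from 0.984 to 1.86 in ACT + IL-2 tumors and from 1.31 to 2.15 in ACT + NKTR-214 tumors. *Pdgfb*, the ligand by which endothelial cells recruit pericytes, had 6.37, 3.18 and 3.66 FPKM in ACT + IL-2 tumors and 5.14, 7.44 and 3.68 FPKM in ACT + NKTR-214 tumors, the same order of tumors in each group as for *Cdh5*. Of the 10 genes, *Tie1* followed *Cdh5* most closely (r = 0.971, rank 31), then *Pecam1* (0.893), *Kdr* (0.858), *Flt1* (0.806) and *Vwf* (0.760), whereas *Angpt2* (0.345) and *Eng* (0.0104, rank 8053) did not follow it. *Tek* and *Angpt1* were below the minimum mean of 1 FPKM for this ranking.

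The wider vessel genes were described from 15 lists that hold 141 entries of the table, 134 of them tested. The counts of called genes stand beside the 20.7% of all genes tested that were called higher and the 8.28% called lower. Over all genes, 2940 of 14172 were called higher with all tumors and 2005 of 14227 without ACT + IL-2 tumor 2. List counts given for that fit stand beside its lower number. Of 30 other endothelial identity genes, 6 were called higher and 0 lower, a share near that of all genes, with a median log2 fold change of 0.25. *Lyl1*, a transcription factor of blood and endothelial cells, rose by 1.20 (limma adjusted p = 0.000619), and *Calcrl*, the adrenomedullin receptor, by 0.75 (adjusted p = 0.00273). *Plvap*, the diaphragm protein of fenestrated endothelium, was called at 0.85 (adjusted p = 0.0295) and *Cd93* at 0.67 (adjusted p = 0.0426), and both lost the call under the 3 other scalings and without ACT + IL-2 tumor 2 or 3, at log2 fold changes down to 0.59 and 0.44 over the fits that left out 1 tumor. The count was 18 without ACT + IL-2 tumor 1, 15 without ACT + NKTR-214 tumor 3, 2 without ACT + IL-2 tumor 2 or 3 and 3 without ACT + NKTR-214 tumor 2, where *Cd93* also lost its call. That last fit also called 2 of the 30 lower. Under the 3 other scalings 4 of the 30 were called higher and 1 or 2 lower. As in the 10 genes, ACT + IL-2 tumor 1 and ACT + NKTR-214 tumor 2 were the highest of their groups for 28 of these 30.

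Of 8 VEGF ligands and further VEGF receptors, 0 were called higher and 1 lower by limma. The number called higher was 3 without ACT + IL-2 tumor 1 or ACT + NKTR-214 tumor 3 and 2 without ACT + NKTR-214 tumor 1. It was 1 without ACT + IL-2 tumor 3 or ACT + NKTR-214 tumor 2 and 0 without ACT + IL-2 tumor 2. With the replicate number as a block it was 3. *Vegfb*, a ligand of VEGFR1 that does not bind VEGFR2, had 51.8, 42.3 and 53.8 FPKM in ACT + IL-2 tumors and 29.3, 23.4 and 28.3 FPKM in ACT + NKTR-214 tumors. It fell by 0.84 on the log2 scale (SE 0.15, limma adjusted p = 0.000622) and was called in 6 of 6 fits that left out 1 tumor. The B16-F10 lineage genes were also lower, as given below.

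Of 6 partners of the angiopoietin receptors, 4 were called higher with a median of 0.46. *Dok2*, an adaptor of TIE2 that T cells and myeloid cells also use, rose from 3.93 ± 1.94 to 30.3 ± 6.65 FPKM (SD, n = 3 each), by 2.71 (limma adjusted p = 4.81e-07). *Foxo1*, a transcription factor that TIE2 signalling restrains, rose by 0.61 (limma adjusted p = 0.0118), and *Tnip2*, which encodes an inhibitor of NF-kappa B, by 0.59 (adjusted p = 0.0124). Without ACT + NKTR-214 tumor 1 neither was called, at log2 fold changes of at least 0.51 and 0.47, and *Foxo1* also lost the call without ACT + IL-2 tumor 2. The list's count was 2 in either of these fits.

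In the sprouting program, 1 of 14 tip cell and Notch genes was called higher and 2 lower. The number called higher was 4 without ACT + IL-2 tumor 1 and 2 under each of the 3 other scalings. The number called lower was 5 after quantile normalization and 1 without ACT + IL-2 tumor 3 or ACT + NKTR-214 tumor 1. *Notch1* rose by 0.89 (limma adjusted p = 0.00117). *Kcne3*, a potassium channel subunit found in tip cells, fell by 0.94 on the log2 scale (limma adjusted p = 0.000456), and *Apln*, which encodes the peptide apelin, fell by 0.75 (adjusted p = 0.0337), with no call without ACT + IL-2 tumor 3 or ACT + NKTR-214 tumor 1 and a change as small as 0.52 in size.

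Around *Eng*, 2 of 9 tested genes of BMP and TGF-beta signalling were called higher and 2 lower, and *Gdf2* and *Bmp10*, its circulating ligands, were listed at 0 in all 6 tumors. With 1 tumor left out these counts were 1 or 2 higher and 1 or 2 lower. *Tgfbr2*, the type II TGF-beta receptor, rose by 1.02 (limma adjusted p = 0.000933), and *Smad5*, a mediator of BMP signalling, fell by 0.78 (adjusted p = 0.000864). *Bmpr2* (-0.47, adjusted p = 0.0256) lost its call in 4 of 6 fits that left out 1 tumor, namely without ACT + IL-2 tumor 1 or 3 or ACT + NKTR-214 tumor 1 or 2, at a change as small as 0.42 in size. *Smad7*, an inhibitory Smad (0.43, adjusted p = 0.0465), lost it in 6 of 6, at a change as small as 0.36. *Smad7* also lost the call after quantile normalization (0.27, limma adjusted p = 0.0956) and at a common sum (0.33, adjusted p = 0.0667).

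All 6 genes of endothelial activation and leukocyte capture were called higher, with a median of 1.01. *Selp*, P-selectin, stored in the same granules as von Willebrand factor and also in platelets, rose from 0.530 ± 0.476 to 3.78 ± 1.26 FPKM (SD, n = 3 each), by 1.65 (limma adjusted p = 2.8e-05), while *Vwf* itself was at 0.025. *Vcam1* rose by 1.35 (limma adjusted p = 0.00207), *Icam1* by 1.29 (adjusted p = 0.000334) and *Ackr3* by 0.74 (adjusted p = 0.0302). Leukocyte counter-receptors bind the first 3 of these on activated vessels, and ICAM-1 is also made by leukocytes and stroma. The count was 3 after quantile normalization. Without ACT + IL-2 tumor 2 it was 2, and *Vcam1* and *Ackr3* were not called, at log2 fold changes of at least 1.10 and 0.57. *Ackr3* also lost its call without ACT + IL-2 tumor 3 and under the 3 other scalings.

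Of 8 angiogenesis inhibitors 4 were called higher, with a median of 0.53. These were *Serpinf1* (1.14, limma adjusted p = 0.00195), *Col18a1*, the source of endostatin (0.93, adjusted p = 0.00572), *Thbs1*, thrombospondin 1 (0.76, adjusted p = 0.0358), and *Timp3* (0.63, adjusted p = 0.0133). Without ACT + IL-2 tumor 2 the count was 0, in a fit that called 2005 of 14227 genes tested higher. The smallest log2 fold changes of the 4 genes over the fits that left out 1 tumor were 0.94, 0.75, 0.49 and 0.50. *Thbs1* and *Timp3* also lost the call without ACT + IL-2 tumor 3, and *Thbs1* under the 3 other scalings. Of 6 oxygen-responsive regulators 2 were called higher, *Egln3* (1.59, limma adjusted p = 0.000422) and *Epas1*, the endothelial hypoxia factor HIF-2 alpha (1.11, adjusted p = 0.00105), while the list's median was -0.019 and 2 others were called lower under the 3 other scalings, and 1 without ACT + IL-2 tumor 2. Of 4 tested lymphatic genes 2 were called higher, *Lyve1* (from 0.751 ± 0.375 to 4.96 ± 0.438 FPKM, SD, n = 3 each, limma adjusted p = 9.18e-07) and *Pdpn* (0.67, adjusted p = 0.00741), and the lymphatic chemokine *Ccl21a* was listed at 0 in all 6 tumors. *Prox1*, the transcription factor that defines lymphatic endothelium, had 0.802, 0.867 and 0.973 FPKM in ACT + IL-2 tumors and 0.579, 0.527 and 0.795 FPKM in ACT + NKTR-214 tumors. All ACT + NKTR-214 tumors lay below, and the log2 fold change of -0.21 was not called (limma adjusted p = 0.174).

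**Figure D5:**
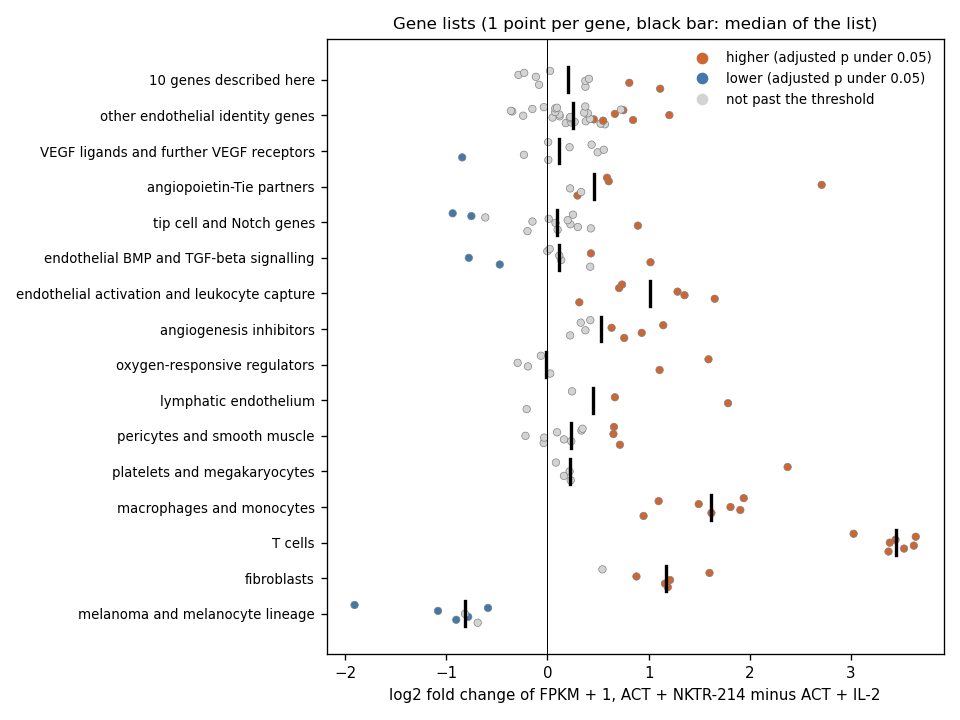
Log2 fold change of FPKM + 1, ACT + NKTR-214 minus ACT + IL-2 (x axis), of each tested gene of the 10 genes and the 15 lists (1 row per list), with a black bar at the median. Medians run from -0.82 (melanoma and melanocyte lineage) to 3.44 (T cells), with the 10 genes at 0.20 and the 30 other endothelial identity genes at 0.25.

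Markers of other cell types moved with the groups and stand beside the results above, in particular *Pecam1* and *Flt1*, which leukocytes also express. T cell genes were called higher for 7 of 7, with summed FPKM of 13.2 to 30.3 in ACT + IL-2 tumors and 166 to 355 in ACT + NKTR-214 tumors, led by *Cd2*, *Cd3g*, *Cd3e* and *Cd8b1* (3.64, 3.62, 3.53 and 3.44). Macrophage and monocyte genes were called for 7 of 7, with sums of 80.2 to 195 against 312 to 484, led by *Mertk*, *Cd68*, *Itgam* and *Csf1r* (1.94, 1.91, 1.81 and 1.62), and for 3 of 7 without ACT + IL-2 tumor 2. Of 8 platelet and megakaryocyte genes 5 could be tested and 1 was called, the platelet chemokine *Pf4* (2.37), while the platelet receptor gene *Gp6* was at 0 in 5 of 6 tumors. *Pf4* made up most of the list's sum, and the other 7 genes together summed to 1.34 to 2.07 FPKM in ACT + IL-2 and 2.30 to 2.80 FPKM in ACT + NKTR-214 tumors.

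Pericyte and smooth muscle genes were called higher for 3 of 11, *Pdgfrb* (0.72), *Myh11* (0.66) and *Mcam* (0.65), for 6 without ACT + IL-2 tumor 1 and for 0 without ACT + IL-2 tumor 2, with sums of 50.3 to 106 against 82.6 to 115. After quantile normalization *Myh11* was not called, at 0.39 (limma adjusted p = 0.0794). ACT + IL-2 tumor 1 and ACT + NKTR-214 tumor 2 were the highest of their groups for 11 of these 11 genes, as they were for most genes of several other lists. Fibroblast genes were called higher for 5 of 6, among them *Dcn* (1.60) and the collagen genes *Col3a1* (1.21), *Col1a1* (1.19) and *Col1a2* (1.16), with sums of 216 to 645 against 578 to 1160. For fibroblasts the count was 0 without ACT + IL-2 tumor 2 and 2 under each of the 3 other scalings, where the collagen genes lost the call. Melanocyte lineage genes were called lower for 5 of 7, among them *Mitf* (-1.91), *Tyrp1* (-1.08), *Pmel* (-0.90) and *Tyr* (-0.78), with sums of 5413 to 6933 against 2664 to 3763, for 2 of 7 without ACT + IL-2 tumor 3 or without ACT + NKTR-214 tumor 1 or 2, and for 7 of 7 without ACT + IL-2 tumor 2 and under each of the 3 other scalings. The part of these cell type differences in the values of *Pecam1*, *Flt1*, *Eng* and the other vessel genes was not tested.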

How the data were processed

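RNA of whole tumors was sequenced by the authors as 50-base single-end reads, mapped to GRCm38 with HISAT2 2.0.4 and counted per gene with HTSeq, and FPKM values on the linear scale were deposited, 1 column per tumor. Strand setting and annotation of the counting are not given in the sources used here. All 6 columns were used.

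Values were tested as log2(FPKM + 1), for genes averaging 0.1 FPKM or more, in limma 3.58.1 (R 4.3.3, lmFit and eBayes with a trend), with Benjamini-Hochberg adjustment at 0.05. Signs are ACT + NKTR-214 minus ACT + IL-2. A fold change on this scale understates that of low genes. On simulated data with 200 changed genes among 14172, 82 of 100 changes of log2 size 1 and 96 of 100 of size 2 were called, with 9 unchanged genes. The result was split by size of change only, not by spread or level of the gene. The endothelial cell and angiogenesis genes had median coefficients of variation of 40.8% in ACT + IL-2 and 27.2% in ACT + NKTR-214 tumors. Over all genes averaging 1 FPKM or more the medians were 14.6% and 10.3%. The simulated shares thus give no rate of calls for the endothelial cell and angiogenesis genes.

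Reads behind a value were taken where steps of FPKM were whole within 0.03. Depth came from 1482 genes with a single transcript, and its level rests on GENCODE lengths. Ratios were compared with two-sided exact permutation tests.

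Genes named from a list were, in each direction, up to 4 called genes that averaged 0.5 FPKM or more, taken by the size of their change. The 10 genes and the 15 lists were chosen with earlier results of these data known. *Gdf2*, *Bmp10*, *Ccl21a* and *Gp6* were named for their zeros, and *Prox1* for its direction, after their values were seen. The settings changed were the pseudocount (0.1), the minimum mean FPKM (1 or none), 3 scalings, limma without trend or without moderation, a replicate block and each tumor left out. Tables and figures used Python 3.11.15, pandas 2.3.3, numpy 2.4.6, scipy 1.17.1 and matplotlib 3.10.9.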

Additional observations from a re-analysis of the deposited data

How the results depend on the processing

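With 3 tumors per group the intervals are wide, and calls moved with single tumors. *Flt1* was called in 6 of 6 and *Pecam1* in 5 of 6 fits that left out 1 tumor. Without ACT + IL-2 tumor 2 the limma adjusted p was 0.0478 for *Flt1* and 0.111 for *Pecam1*. The number of the 10 genes called higher was 2 as reported, 1 (*Flt1*) with no minimum FPKM, 0 without moderation of the variance (1 higher and 0 lower at an unadjusted p under 0.05) and 1 to 5 with 1 tumor left out. The number called lower was 0 as reported, 2 at a common 75th percentile, 3 after quantile normalization, 2 at a common sum and 0 to 1 with 1 tumor left out. Genes of the lists called higher numbered 50 as reported, 33 with no minimum, 0 without moderation (34 unadjusted) and 23 to 76 with 1 tumor left out. Those called lower numbered 10 as reported, 6 with no minimum, 16 at a common 75th percentile, 20 after quantile normalization, 17 at a common sum, 0 without moderation (11 unadjusted), 5 to 14 with 1 tumor left out and 6 without the highest tumor of each group. Over all genes, 2940 higher and 1173 lower became 3259 and 3709 at a common 75th percentile, 2926 and 4426 at a common sum and 101 and 27 without moderation. Without moderation each gene's spread is estimated from 6 tumors alone. The cause of the other shifts was not tested.

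The sign turned for *Vwf* (-0.066 at a common 75th percentile, -0.11 after quantile normalization, -0.15 at a common sum, -0.12 to 0.12 with 1 tumor left out), for *Kdr* (-0.36 to 0.20 with 1 tumor left out) and for the log2 ratio of *Angpt2* to *Angpt1* (-0.20 to 0.15 with 1 tumor left out), none of which was called as reported. For the 47 named list genes, 609 of 752 alternative values kept direction and call, 143 lost the call and 0 reversed. Replicate numbers mark different mice. Same-numbered tumors deviated together with r of -0.21, -0.067 and 0.40. With 3 tumors per group these values cannot show whether the numbers pair tumors. With the replicate block the 10 genes gave 3 called higher, *Tek* being added at 0.37 (limma adjusted p = 0.0178), and the lists 55 higher and 13 lower, in a fit that called 3090 of 14172 genes higher and 1227 lower. Depth limits *Tek* and *Angpt1*, which rest on under 150 reads in every tumor.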
